A study of Mus musculus with 6 samples.

Results

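The genes of cholesterol and fatty acid synthesis were followed in murine oviductal epithelial (MOE) cells that had been passaged for a long or a short time. Members were chosen by symbol from a list of 34 genes that comprises the enzymes of sterol synthesis, the sterol regulatory element-binding proteins (SREBPs) and their partners, and the enzymes that build, elongate and desaturate fatty acids. Of these, 32 were found by symbol among the 22800 symbols of the deposited tables. Msmo1 was present under its older symbol Sc4mol and is described beside the list but not counted in it, and Tm7sf2, a sterol reductase gene, was not matched and is not analysed here. RNA came from MOEHIGH cells at passages 90, 103 and 113 and from MOELOW cells at passages 8, 9 and 10, with 1 library at each passage. Both groups were one line, established from pooled oviducts of 8-week-old outbred CD1 females, and were grown in the same medium with fetal bovine serum, insulin, epithelial growth factor and estradiol, so a p-value measures only the spread between passages of this line. Values were FPKM, which are fragments scaled to transcript length and to the mapped fragments of a library, and limma was run on log2(FPKM + 1) with an adjusted p of 0.05 as the threshold. Each log2 fold change is MOEHIGH minus MOELOW with its standard error (SE), and because of the added 1 it is too small for low genes.

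Cholesterol is built from acetyl-CoA through mevalonate, isoprenoid diphosphates and squalene, and fatty acids are built from acetyl-CoA through malonyl-CoA. Transcription of both routes is driven by the SREBPs, which are held in the endoplasmic reticulum with the escort protein Scap and the retention proteins Insig1 and Insig2 when sterols are plentiful, and are carried to the Golgi and cleaved to an active factor when sterols are scarce. In general Srebf2 favours the sterol enzymes and Srebf1 the fatty acid enzymes, and both genes, Insig1 and most of the enzymes are themselves SREBP targets. Proliferating epithelial cells need both products for new membrane.

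Of the 32 genes, 12 passed as higher in MOEHIGH and 4 as lower, and the other 16 stayed short of the threshold, with a median log2 fold change of 0.48. Over all 11621 genes tested, 24.3% were higher, 32.1% were lower and the median was -0.05. For 17 of the 32 genes all MOEHIGH values lay on one side of MOELOW, 12 of them with MOEHIGH above (28.5% of all tested genes) and 5 with MOEHIGH below (35.5%). The library of passage 90 stood apart from the other MOEHIGH libraries in these genes. Without it 22 members were higher (22.0% of all genes tested in that fit), 4 were lower (30.5%), and the median log2 fold change was 0.80. Passage 90 was singled out after its low values were seen. Adjusted p values of the fit without it, here and below, are therefore descriptive only. Without passage 103 only 6 members were higher, and without passage 8 there were 7, beside 2382 and 2212 of all genes tested in those fits. No member was listed at 0 in any library, and 10 of the 16 called genes kept their call without any 1 of the 6 libraries. These were Mvd, Ebp, Acaca, Fasn, Fads1 and Fads2, which were higher, and Insig2, Elovl1, Elovl5 and Scd1, which were lower. The share of all called genes that kept their call in this way is not given here, so 10 of 16 cannot be set against it.

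**Figure D1:**
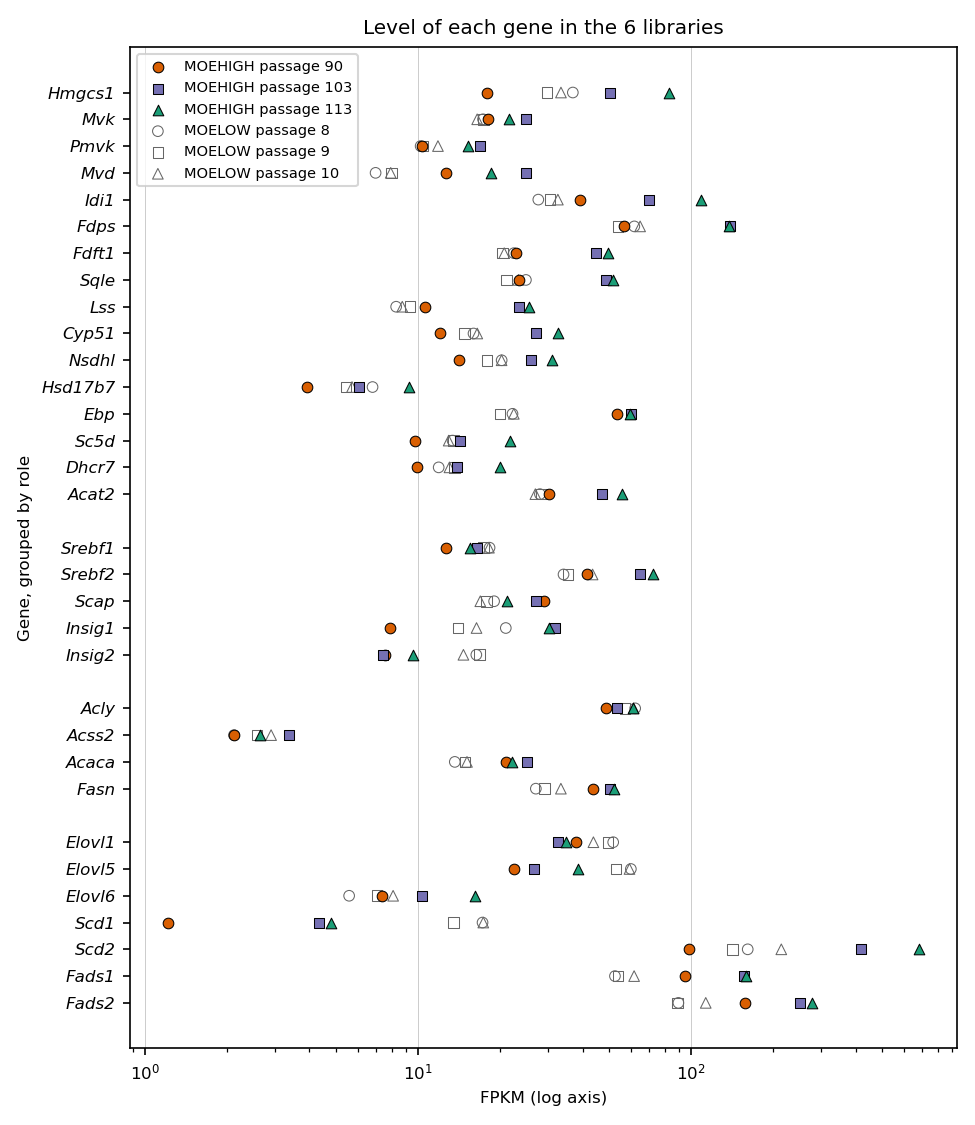
Level of each of the 32 genes in FPKM on a log axis, with filled symbols for the 3 MOEHIGH libraries and open symbols for the 3 MOELOW libraries, and genes ordered by role. The open symbols lie close together, while in most rows the passage 90 symbol lies left of those of passages 103 and 113, as for Scd2 at 98.5, 420 and 685 FPKM.

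Of the 16 sterol enzymes found by symbol, 6 passed the test, all higher, where 24.3% of all tested genes were higher. The log2 fold change was above 0 for 16 of 16, with Hsd17b7 at only 0.02, and for 5417 of all 11621 genes tested. The number of sterol enzymes called higher was 2 without passage 8, 3 without passage 10, 13 without passage 90 and 2 without passage 103. It was 10 with the median of each chromosome removed and 2 with libraries scaled to equal totals. Over all genes tested in each fit, those called higher numbered 2212, 2258, 2566 and 2382 without passages 8, 10, 90 and 103. They numbered 3343 with chromosome medians removed and 2256 with libraries scaled to equal totals. That scaling ended the calls of Idi1, Fdft1, Lss and Acat2 (adjusted p = 0.056, 0.10, 0.060 and 0.13, limma). The summed level of all 16 sterol enzymes was 345, 637 and 741 FPKM at passages 90, 103 and 113 of MOEHIGH. It was 335, 314 and 337 FPKM at passages 8, 9 and 10 of MOELOW. Passage 90 was thus near the MOELOW libraries, and the other MOEHIGH libraries were well above them.

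At the head of the route, Hmgcs1, which encodes the cytosolic synthase of HMG-CoA, spans 119690351 to 119708260 on chromosome 13 (mm10). Its level was 17.9, 50.3 and 82.6 FPKM in MOEHIGH and 36.9, 29.7 and 33.4 FPKM in MOELOW. The MOEHIGH library of passage 90 was the lowest of all 6 and passage 113 the highest, so the groups overlapped. The log2 fold change of Hmgcs1 was 0.34 (SE 0.47, adjusted p = 0.56, limma), but 0.94 without passage 90 (adjusted p = 0.0085) and -0.13 without passage 113 (adjusted p = 0.77). Acat2, a cytosolic thiolase that makes acetoacetyl-CoA for this step, averaged 44.3 ± 13.0 FPKM in MOEHIGH and 27.7 ± 0.716 FPKM in MOELOW (SD, n = 3 passages each) and rose by a log2 fold change of 0.62 (adjusted p = 0.033, limma). The call of Acat2 was lost when any one of passages 8, 9, 10, 103 and 113 was left out, with an adjusted p of up to 0.10.

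The mevalonate enzymes differed in how far they moved. Mvd, the diphosphomevalonate decarboxylase gene (chromosome 8, 122433596 to 122443422), was at 12.7, 24.8 and 18.5 FPKM in MOEHIGH against 6.99, 8.00 and 7.94 FPKM in MOELOW. Every MOEHIGH library was above every MOELOW library, and the log2 fold change of Mvd was 1.14 (SE 0.22, adjusted p = 0.0027, limma). The kinase genes before it moved less. Mvk, the mevalonate kinase gene, was at 18.1, 24.9 and 21.5 FPKM in MOEHIGH and 17.3, 17.3 and 16.5 FPKM in MOELOW, with no overlap but an adjusted p of 0.072 in limma. For Pmvk, the phosphomevalonate kinase gene, the values were 10.4, 16.8 and 15.2 FPKM in MOEHIGH and 10.2, 10.4 and 11.8 FPKM in MOELOW (adjusted p = 0.14, limma). Both kinase genes were higher without passage 90, with adjusted p of 0.019 for Mvk and 0.0098 for Pmvk.

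Idi1, the isomerase that interconverts the isoprenoid building blocks, was at 39.1, 70.3 and 109 FPKM in MOEHIGH and at 27.6, 30.4 and 32.5 FPKM in MOELOW. All MOEHIGH libraries of Idi1 were above MOELOW, with a log2 fold change of 1.13 (SE 0.32, adjusted p = 0.017, limma). The call of Idi1 was lost without passage 8 (adjusted p = 0.060) or passage 103 (adjusted p = 0.052). Fdps, which joins these units into farnesyl diphosphate, was at 56.7, 138 and 138 FPKM in MOEHIGH and at 61.9, 54.0 and 65.0 FPKM in MOELOW. Passage 90 fell within the MOELOW range, and Fdps did not pass the test with all libraries (log2 fold change 0.76, adjusted p = 0.075, limma) but did without passage 90 (1.18, adjusted p = 0.00021). Exons of Fdps share 1124 bases with another GENCODE gene model on the same strand. Reads of Fdps could have been divided if that model was among the UCSC genes counted, which was not checked.

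From squalene on, the same arrangement of libraries recurred. Fdft1, the squalene synthase gene, was at 22.9, 44.9 and 49.8 FPKM in MOEHIGH and 22.4, 20.4 and 20.7 FPKM in MOELOW, and rose with an adjusted p of 0.034 in limma. Leaving out any 1 library other than passage 90 ended the call of Fdft1, with an adjusted p of up to 0.11. Exons of Fdft1 share 774 bases with Ctsb on the opposite strand. Sqle, the squalene epoxidase gene whose product is a rate-limiting oxygenase of the route, spans 59315092 to 59331193 on chromosome 15 and was at 23.4, 48.9 and 51.8 FPKM in MOEHIGH and 24.8, 21.1 and 23.3 FPKM in MOELOW. Sqle missed the threshold with all libraries (log2 fold change 0.74, SE 0.28, adjusted p = 0.051, limma) and was higher without passage 90 (1.10, adjusted p = 0.00026). Lss, which closes the sterol rings to give lanosterol, was at 10.6, 23.4 and 25.5 FPKM in MOEHIGH and 8.31, 9.34 and 8.75 FPKM in MOELOW. All 3 MOEHIGH libraries of Lss were above MOELOW (log2 fold change 1, SE 0.29, adjusted p = 0.019, limma), and the call was lost without passage 8, 10 or 103 (adjusted p = 0.064, 0.053 and 0.070).

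Of the enzymes that turn lanosterol into cholesterol, Ebp had the largest log2 fold change. Ebp, the sterol isomerase gene on the X chromosome from 8185329 to 8193512, was at 53.3, 60.3 and 59.9 FPKM in MOEHIGH and 22.2, 19.9 and 22.4 FPKM in MOELOW. Its log2 fold change was 1.39 (SE 0.10, adjusted p = 1.8e-05, limma), Ebp alone among the members exceeded a 2-fold rise when that minimum was tested, and passage 90 was close to the other MOEHIGH libraries. Of the 362 genes tested on the X chromosome, 16.3% were higher. Cyp51, the lanosterol demethylase gene, was at 12.1, 27.1 and 32.6 FPKM in MOEHIGH and 15.96, 14.8 and 16.5 FPKM in MOELOW, so passage 90 was below all MOELOW libraries and the others above them. With all libraries Cyp51 had an adjusted p of 0.24 in limma, and without passage 90 it was higher (log2 fold change 0.88, adjusted p = 0.0011). Nsdhl, a sterol dehydrogenase gene, had the same order of libraries, with 14.1, 25.8 and 30.8 FPKM in MOEHIGH and 20.2, 17.9 and 20.2 FPKM in MOELOW, and was higher without passage 90 (adjusted p = 0.012, limma, against 0.52 with it). Hsd17b7, Sc5d and Dhcr7, which encode a sterol reductase, a desaturase and the last reductase, had log2 fold changes of 0.02, 0.12 and 0.12. None of Hsd17b7, Sc5d and Dhcr7 passed the test with or without passage 90 (adjusted p = 0.24, 0.11 and 0.11, limma without it), and without passage 113 the sign of each turned, to -0.24, -0.16 and -0.12. Msmo1, the methylsterol oxygenase gene listed as Sc4mol, was at 62.4, 132 and 164 FPKM in MOEHIGH and 72.4, 70.1 and 65.5 FPKM in MOELOW (adjusted p = 0.11, limma, and 0.00049 without passage 90).

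**Figure D2:**
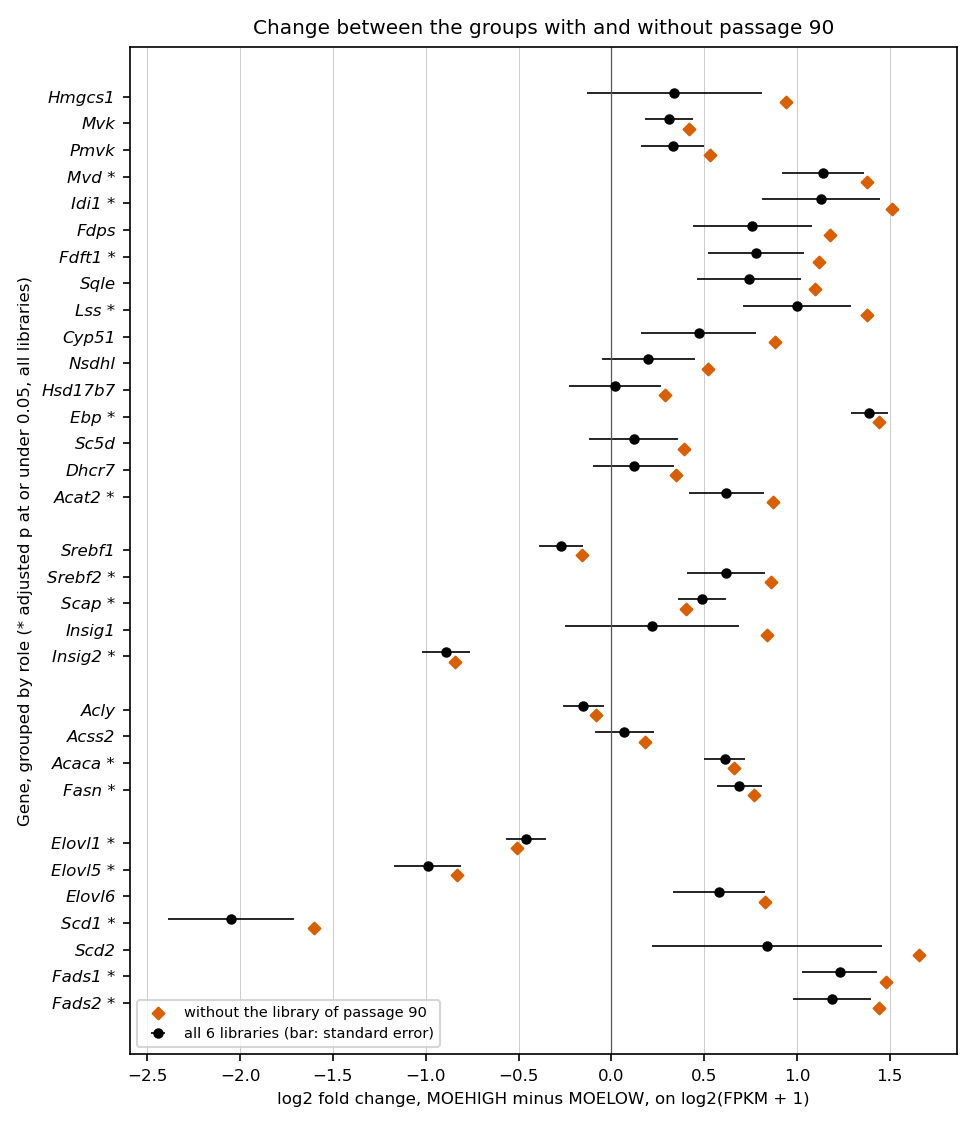
Log2 fold change of each gene, MOEHIGH minus MOELOW, on log2(FPKM + 1), as black points with standard errors over all 6 libraries and as diamonds without the library of passage 90, where an asterisk marks an adjusted p at or under 0.05 with all libraries. The diamonds lie right of the points for all 16 sterol enzymes, while Ebp (1.39 and 1.44) and Insig2 (-0.89 and -0.84) barely moved.

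The regulators of the SREBPs did not move as a block, with 2 higher, 1 lower and 2 that did not pass the test. Of all tested genes, 24.3% were higher and 32.1% lower. Srebf2, the SREBP gene that favours sterol enzymes, was at 41.7, 65.1 and 72.3 FPKM in MOEHIGH and 34.1, 35.4 and 43.5 FPKM in MOELOW. Passage 90 lay inside the MOELOW range. Srebf2 rose by a log2 fold change of 0.62 (SE 0.21, adjusted p = 0.033, limma), and the call was lost without passage 8, 9, 103 or 113 (adjusted p = 0.076 to 0.11) and with libraries scaled to equal totals (adjusted p = 0.13). For Srebf1, the SREBP gene that favours fatty acid enzymes, the values were 12.6, 16.4 and 15.4 FPKM in MOEHIGH and 18.3, 17.3 and 18.2 FPKM in MOELOW. All MOEHIGH libraries of Srebf1 were below MOELOW, but the adjusted p was 0.090 (log2 fold change -0.27, from limma). Scap, the escort gene, was at 28.9, 27.1 and 21.2 FPKM in MOEHIGH and 19.0, 17.8 and 16.9 FPKM in MOELOW and rose (log2 fold change 0.49, adjusted p = 0.014, limma). Scap was the one regulator that was highest at passage 90, and its call was lost without passage 10 (adjusted p = 0.056) or 103 (adjusted p = 0.050).

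The retention genes Insig1 and Insig2 parted. Insig1, itself a strong SREBP target, spans 28071412 to 28078662 on chromosome 5 and was at 7.90, 31.8 and 30.2 FPKM in MOEHIGH and at 20.9, 14.0 and 16.4 FPKM in MOELOW. Passage 90 was the lowest library and the other MOEHIGH libraries the highest, a 4.02-fold and a 3.82-fold difference within MOEHIGH. With all libraries the log2 fold change of Insig1 was 0.22 (SE 0.47, adjusted p = 0.71, limma), without passage 90 it was 0.84 (adjusted p = 0.0054), and without passage 103 or 113 it was -0.10 or -0.07. Insig2, on chromosome 1 from 121304353 to 121332662, was at 7.54, 7.42 and 9.58 FPKM in MOEHIGH and 16.3, 16.8 and 14.7 FPKM in MOELOW. All MOEHIGH libraries of Insig2 were below MOELOW, with a log2 fold change of -0.89 (SE 0.13, adjusted p = 0.00061, limma).

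In fatty acid synthesis proper, Fasn and Acaca rose and differed by at most 1.20-fold between passage 90 and another MOEHIGH library, and Acly and Acss2 did not pass the test. Fasn, the fatty acid synthase gene on chromosome 11 from 120805958 to 120825166, was at 43.6, 50.4 and 52.4 FPKM in MOEHIGH and 27.0, 29.1 and 33.3 FPKM in MOELOW, with a log2 fold change of 0.69 (SE 0.12, adjusted p = 0.0017, limma). Acaca, which encodes the acetyl-CoA carboxylase that supplies malonyl-CoA, was at 21.1, 24.95 and 22.1 FPKM in MOEHIGH and 13.6, 14.9 and 15.1 FPKM in MOELOW, a log2 fold change of 0.61 (SE 0.11, adjusted p = 0.0018, limma). Groups did not overlap for either gene. The genes that supply acetyl-CoA did not pass the test. Acly, the citrate lyase gene, averaged 54.5 ± 6.24 FPKM in MOEHIGH and 60.4 ± 2.78 FPKM in MOELOW (SD, n = 3 passages each, adjusted p = 0.28, limma), though it was lower without passage 113 (log2 fold change -0.24, adjusted p = 0.040). Acss2, the acetyl-CoA synthetase gene, was low throughout, at 2.71 ± 0.634 FPKM in MOEHIGH and 2.53 ± 0.391 FPKM in MOELOW (adjusted p = 0.74, limma). Exons of Acss2 overlap those of Gss and Ggt7 on the opposite strand, so this low value is less certain.

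Among the 7 desaturases and elongases, 2 genes were higher, 3 lower and 2 did not reach the threshold. Over all tested genes 24.3% were higher and 32.1% lower. Scd1 had the largest log2 fold change of any member. The stearoyl-CoA desaturases introduce the double bond of oleate, and Scd1 and Scd2 are neighbours on chromosome 19 of mm10. Scd1, from 44394450 to 44407709, was at 1.21, 4.35 and 4.79 FPKM in MOEHIGH against 17.2, 13.5 and 17.3 FPKM in MOELOW, with no overlap and a log2 fold change of -2.05 (SE 0.34, adjusted p = 0.0015, limma). Scd2, from 44293676 to 44306864, was at 98.5, 420 and 685 FPKM in MOEHIGH against 161, 142 and 214 FPKM in MOELOW, so on this length-scaled measure it was the most abundant member in all 6 libraries except at passage 90, where Fads2 was higher at 158 FPKM. The log2 fold change of Scd2 was 0.84 (SE 0.62, adjusted p = 0.28, limma), and 1.66 without passage 90 (adjusted p = 0.0014). For Scd2 it was 0.26 without passage 113 and 0.62 without passage 103 (adjusted p = 0.69 and 0.51, limma). Both genes were thus lower at passage 90 than at passages 103 and 113, by 3.59-fold and 3.96-fold for Scd1 and by 4.26-fold and 6.96-fold for Scd2. As the paralogs are alike in their coding sequence, reads may have been assigned to either.

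Fads1 and Fads2, the desaturases of polyunsaturated fatty acid synthesis, also lie together on chromosome 19, from 10182877 to 10196874 and from 10062765 to 10101503, and rose together. Fads1 was at 95.03, 156 and 159 FPKM in MOEHIGH and 52.6, 53.9 and 61.8 FPKM in MOELOW (log2 fold change 1.23, SE 0.20, adjusted p = 0.0012, limma). Fads2 was at 158, 250.5 and 277 FPKM in MOEHIGH and 89.8, 89.3 and 113 FPKM in MOELOW (log2 fold change 1.19, SE 0.21, adjusted p = 0.0021, limma). Chromosome 19 as a whole was shifted, as 66.1% of its 413 tested genes were higher and 10.9% lower, with a median log2 fold change of 0.70. With the median of each chromosome removed from each library, which moved the median of all genes by 0.12, Fads1 remained higher (0.59, adjusted p = 0.042, limma), Fads2 did not pass the test (0.54, adjusted p = 0.067), Scd1 was lower (-2.70, adjusted p = 0.00034) and Scd2 was at 0.20 (adjusted p = 0.80). Chromosomes 8 and 2 had higher shares too, at 45.0% with Mvd and Sc4mol among their genes and at 39.8% with Acss2.

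The elongases add carbon pairs to fatty acids. Elovl5, which acts on polyunsaturated chains, was at 22.5, 26.7 and 38.4 FPKM in MOEHIGH and 60.1, 53.1 and 59.4 FPKM in MOELOW and fell (log2 fold change -0.99, SE 0.18, adjusted p = 0.0025, limma). Elovl1, which acts on very long saturated chains, fell to 37.7, 32.4 and 34.7 FPKM in MOEHIGH, against 51.8, 49.5 and 43.9 FPKM in MOELOW (log2 fold change -0.46, adjusted p = 0.0079, limma), and did not pass the test with chromosome medians removed (adjusted p = 0.080). Elovl6, which extends palmitate, was at 7.36, 10.3 and 16.1 FPKM in MOEHIGH and 5.59, 7.08 and 8.10 FPKM in MOELOW. With an adjusted p of 0.086 in limma it did not pass the test, but it was higher without passage 90 (log2 fold change 0.83, adjusted p = 0.016).

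**Figure D3:**
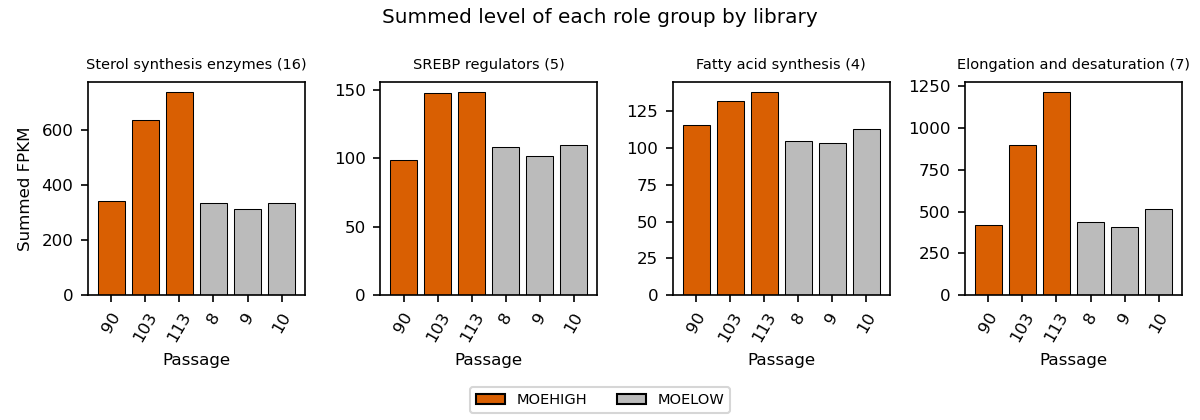
Summed FPKM of the genes of each role in each library, with orange bars for MOEHIGH and grey bars for MOELOW, and the number of genes in parentheses. The sterol enzymes summed to 345, 637 and 741 FPKM at passages 90, 103 and 113, and the elongases and desaturases to 420, 899 and 1216 FPKM, against 408 to 517 FPKM in MOELOW. Scd2 alone gave 98.5, 420 and 685 FPKM of the elongase and desaturase sums in MOEHIGH. Of those 7 genes, 2 were called higher and 3 lower.

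Ratios within a library compared partner genes on a scale that depends little on the library total. The log2 ratio of Scd1 to Scd2, each as FPKM + 1, was -5.49, -6.30 and -6.89 in MOEHIGH and -3.15, -3.30 and -3.55 in MOELOW, a difference of -2.89 with no overlap (exact two-sided permutation test, p = 0.1, adjusted over 5 ratios 0.167). With 3 libraries in each group this test can give no p below 0.1. The ratios of Srebf1 to Srebf2 and of Elovl5 to Elovl6 also did not overlap, with differences of -0.89 and -1.57 (exact permutation p = 0.1, adjusted 0.167, for each). For Insig1 to Insig2 the MOEHIGH values were 0.06, 1.96 and 1.56 and the MOELOW values 0.34, -0.24 and 0.15, which overlapped (exact permutation p = 0.3, adjusted 0.375). Fads1 and Fads2 kept a near constant ratio, with means of -0.74 ± 0.06 in MOEHIGH and -0.78 ± 0.07 in MOELOW (SD, n = 3 passages each, exact permutation p = 0.6).

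**Figure D4:**
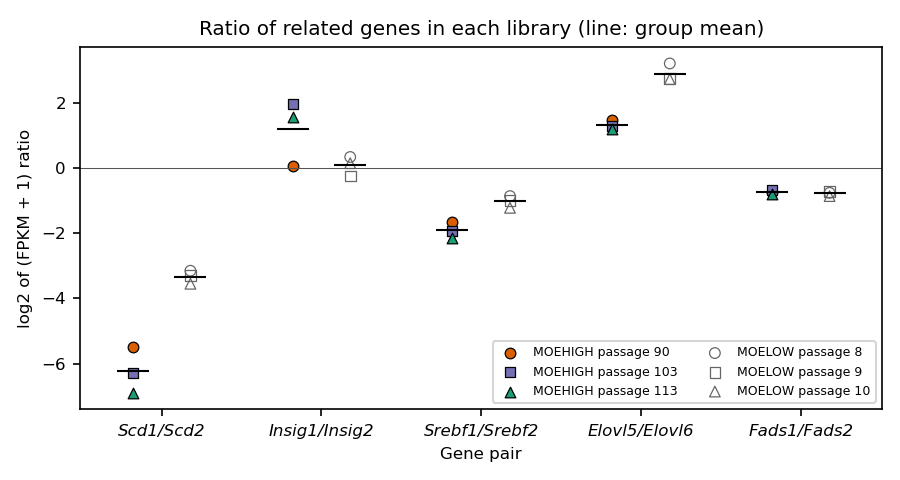
Log2 ratio of FPKM + 1 for 5 pairs of related genes in each library, MOEHIGH as filled symbols left of MOELOW as open symbols, with a line at each group mean. The pairs Scd1/Scd2, Srebf1/Srebf2 and Elovl5/Elovl6 were below MOELOW in all 3 MOEHIGH libraries, and for Insig1/Insig2 passage 90 (0.06) sits among the MOELOW values.

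Within MOEHIGH, the difference between passage 90 and the other libraries was shared by most members. It was noticed in the data, so it is described without a test. Passages 103 and 113 were both above passage 90 for 29 of the 32 genes, including 16 of 16 sterol enzymes, where 31.4% of all tested genes had this order, and both below it for 2 genes, Scap and Elovl1 (34.8% of all tested genes). With libraries scaled to equal totals the order held for 30 members and for 6142 of all tested genes, against 3652 as deposited. For 15 members both libraries were at least 1.5-fold above passage 90 on the log2(FPKM + 1) scale, against 107 of all 11621 genes (0.921%). The 15 were 9 sterol enzymes, the regulators Insig1 and Srebf2, and Scd1, Scd2, Fads1 and Fads2. None of the 4 fatty acid synthesis genes Acly, Acss2, Acaca and Fasn was among them. Over all tested genes the median difference from passage 90 was -0.02 for passage 103 and 0.00 for passage 113 on the log2 scale, and over the 16 sterol enzymes 0.83 and 1.08. The proliferation genes, a list of 10 that includes Mki67 and Mcm5, summed to 1087, 1119 and 1118 FPKM in the 3 MOEHIGH libraries and 501 to 565 FPKM in MOELOW, so passage 90 did not stand apart in them.

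**Figure D5:**
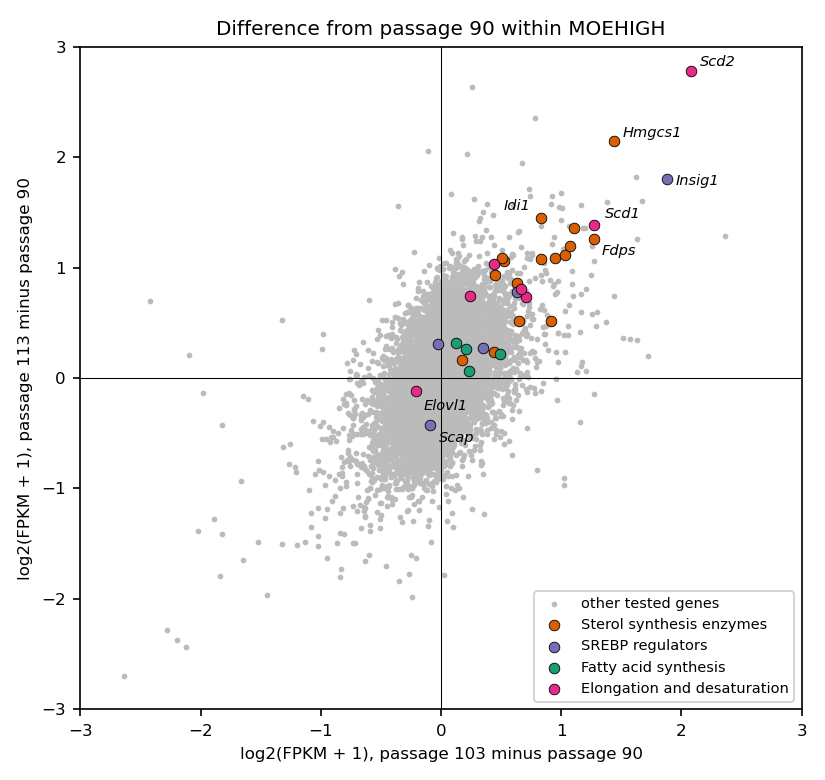
Difference in log2(FPKM + 1) of passage 103 (horizontal) and passage 113 (vertical) from passage 90 for all tested genes in grey, with members coloured by role and 29 genes beyond the axes not shown. Both differences are above 0 for 29 of the 32 members, with Scd2 at 2.08 and 2.79, Insig1 at 1.88 and 1.81 and Hmgcs1 at 1.44 and 2.15. Several, such as Ebp at 0.17 and 0.17, lie within the grey cloud, and Scap and Elovl1 lie below and left of the origin.

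Promoters were read for members that moved together in these libraries. RefSeq sequences of GRCm38.p6, which is the mm10 build, were held for 27 of the 33 genes with values, not for Fdps, Fdft1, Sqle, Scd1, Scd2 or Fads1. Windows were set from 250 bases before to 50 after a start. For Lss the window begins at 76531355 and the gene at 76531565, so it reaches less than 250 bases before the gene. The 4 genes shown have an entry and are those with the largest difference from passage 90 when the smaller of the differences of passages 103 and 113 is taken, where Msmo1 came next at 1.07 against 1.08 for Lss. The sequences are on the strand of the gene and 5′ to 3′. Capitals mark the sterol regulatory element core TCACNCCAC, the CCAAT box of the factor NF-Y and the GC box GGGCGG of the Sp1 family, on either strand.
Insig1 promoter, chr5:28071162-28071461, plus strand: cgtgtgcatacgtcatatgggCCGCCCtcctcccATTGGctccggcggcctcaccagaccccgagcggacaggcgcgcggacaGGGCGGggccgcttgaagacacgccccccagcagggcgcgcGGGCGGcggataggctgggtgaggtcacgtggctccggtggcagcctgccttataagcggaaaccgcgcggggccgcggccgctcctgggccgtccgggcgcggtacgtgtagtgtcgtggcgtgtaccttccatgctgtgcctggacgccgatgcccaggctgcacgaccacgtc
Hmgcs1 promoter, chr13:119690101-119690400, plus strand: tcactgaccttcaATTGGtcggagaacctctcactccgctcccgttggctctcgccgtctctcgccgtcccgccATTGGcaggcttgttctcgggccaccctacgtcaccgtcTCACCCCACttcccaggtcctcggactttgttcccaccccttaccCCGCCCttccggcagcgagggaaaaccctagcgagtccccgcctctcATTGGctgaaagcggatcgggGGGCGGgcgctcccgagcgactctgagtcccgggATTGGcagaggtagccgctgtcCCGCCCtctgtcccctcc
Cyp51 promoter, chr5:4104648-4104947, minus strand: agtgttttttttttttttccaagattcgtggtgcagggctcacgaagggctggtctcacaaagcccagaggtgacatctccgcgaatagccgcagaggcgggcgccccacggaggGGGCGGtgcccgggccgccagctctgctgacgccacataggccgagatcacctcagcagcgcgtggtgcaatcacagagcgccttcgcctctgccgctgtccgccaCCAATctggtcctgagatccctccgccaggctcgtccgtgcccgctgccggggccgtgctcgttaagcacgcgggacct
Lss promoter, chr10:76531355-76531654, plus strand: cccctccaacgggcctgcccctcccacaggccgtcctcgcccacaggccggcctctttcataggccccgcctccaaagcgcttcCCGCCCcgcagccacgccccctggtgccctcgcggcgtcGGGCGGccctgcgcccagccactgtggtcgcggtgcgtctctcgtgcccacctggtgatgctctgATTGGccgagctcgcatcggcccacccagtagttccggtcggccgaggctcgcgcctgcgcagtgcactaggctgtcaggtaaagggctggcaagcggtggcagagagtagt

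Over all entries of a gene, the core TCACNCCAC was found for 1 of the 27 genes, Hmgcs1, where it began 137 bases before the gene start. It was in 1.38% of the 8346 tested genes with an entry and in 1.24% of all 32851 promoters. The CCAAT box was in the window of 22 of the 27 (81.5%), against 43.7% of the tested genes, and Hmgcs1 held 4 copies. The GC box was in 22 of the 27 (81.5%), against 71.1% of the tested genes. The E-box CACGTG, which reads the same on both strands, was in 6 of the 27 (22.2%), namely Dhcr7, Elovl5, Hsd17b7, Insig1, Sc5d and Scap, against 12.0% of the tested genes. Such matches describe the letters of one window and are not binding sites.

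The genes of neighbouring lipid routes were counted in the same way, beside 24.3% higher and 32.1% lower over all tested genes. Of 15 genes of sterol uptake and transport, 2 passed as higher and 7 as lower. Gramd1b, a sterol transporter gene, rose (log2 fold change 1.65), and the lipoprotein receptor genes Vldlr and Lrp1 fell (-2.37 and -2.35). The sterol carrier gene Stard4, named after its values were seen, had the arrangement of the sterol enzymes, at 4.32, 9.72 and 14.4 FPKM in MOEHIGH and 6.62, 6.18 and 7.16 FPKM in MOELOW. Stard4 did not pass the test with all libraries (adjusted p = 0.44, limma) and was higher without passage 90 (adjusted p = 0.010).

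Of 16 genes of SREBP transport, cleavage and sterol-regulated degradation, 1 was higher and 5 were lower. Beside this and the counts of other routes below, 24.3% of all tested genes were higher and 32.1% lower with all libraries. Erlin1, which takes part in the degradation of sterol-regulated proteins, rose (log2 fold change 1.18), while the coat genes of vesicles leaving the endoplasmic reticulum Sec23a, Sec24d and Sar1a fell (-2.07, -1.22 and -0.73). Of 7 genes of sterol sensing by LXR and sterol export, 1 was higher, Apoe (1.81), and 3 were lower, among them the cholesterol esterification gene Soat1 (-1.05). Of 14 genes of the branches that lead from mevalonate to prenylation and ubiquinone, 5 were higher and 4 lower, with Pdss1, a synthase of the ubiquinone side chain, at 1.64. Of 23 genes of fatty acid oxidation, 2 passed as higher and 12 as lower, with a median log2 fold change of -0.33. Slc25a20, the mitochondrial acylcarnitine carrier gene, averaged 8.96 ± 1.76 FPKM in MOEHIGH and 15.8 ± 0.119 FPKM in MOELOW (SD, n = 3 passages each, adjusted p = 0.0022, limma). The nuclear receptor gene Ppard rose (1.10). With the median of each chromosome removed, 4 of the 23 were higher and 6 lower, beside 28.8% and 27.1% of all tested genes. Of 21 other genes of fatty acid synthesis and activation, 7 were higher, with Acsl5 on chromosome 19 at 0.98, and 6 were lower, with the citrate carrier gene Slc25a1 at -0.70. Of 16 genes of glycerolipids and lipid droplets, 1 was higher and 5 were lower. The one that rose was Plin2, the coat protein gene of lipid droplets, at 266, 125 and 113 FPKM in MOEHIGH and 70.0, 74.0 and 65.6 FPKM in MOELOW (log2 fold change 1.14, adjusted p = 0.011, limma). In Plin2 passage 90 was the highest library, opposite to its place in the sterol enzymes. The same removal of chromosome medians gave 8 lower of the 16 genes of SREBP transport and 2 lower of the 14 of the mevalonate branches. Of the 16 genes of glycerolipids and droplets it gave 3 higher. Without passage 90, 4 of the 15 genes of uptake and transport were higher and 3 of the 16 of glycerolipids and droplets were lower. In that fit 22.0% of all genes tested were higher and 30.5% lower.

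Markers of the tissue and of other cells were set beside these results. Of the 8 oviduct epithelium markers tested, out of 10, 2 were higher, Krt7 and Krt18, and 2 were lower, Wt1 and Esr1. Wt1 was at 27.7 to 33.4 FPKM in MOEHIGH and 50.4 to 50.8 FPKM in MOELOW, and Esr1 at 0.0311 to 0.0438 FPKM in MOEHIGH and 3.09 to 4.48 FPKM in MOELOW. Krt8 was at 22.6, 55.2 and 44.0 FPKM in MOEHIGH, lowest at passage 90, and 54.4, 39.6 and 47.4 FPKM in MOELOW. Pax8 was at 41.0 to 48.8 FPKM in MOEHIGH and 44.4 to 54.4 FPKM in MOELOW, and Krt18 at 1417 to 2371 FPKM in MOEHIGH and 779 to 827 FPKM in MOELOW, while the oviductal glycoprotein gene Ovgp1 was at 0.703 to 1.009 FPKM in MOEHIGH and 0.761 to 1.09 FPKM in MOELOW and the epithelial adhesion genes Epcam and Cdh1 were under 0.1 FPKM in every library. The 8 smooth muscle markers summed to 70.5 to 108 FPKM in MOEHIGH and 7832 to 11267 FPKM in MOELOW, and the 10 fibroblast markers to 22.4 to 32.7 FPKM in MOEHIGH and 596 to 988 FPKM in MOELOW. All 7 smooth muscle markers tested and 6 of the 7 fibroblast markers tested were lower. Fewer cells of a type and less RNA per cell cannot be told apart in bulk RNA, and the part of these cells in the results was not tested. Of 8 adipocyte markers, 5, among them Adipoq and Plin1, were at 0 in all libraries and the list summed to at most 0.152 FPKM in MOEHIGH and 1.33 FPKM in MOELOW. The steroidogenic markers of ovary, 11 genes, summed to 4.36 to 6.01 FPKM in MOEHIGH and 5.15 to 6.14 FPKM in MOELOW. Between passage 90 and the other MOEHIGH libraries the smooth muscle sum was 108 against 91.7 and 70.5 FPKM, and the fibroblast sum 27.9 against 22.4 and 32.7 FPKM.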

How the data were processed

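The authors made strand-specific libraries from total RNA depleted of ribosomal RNA. TopHat2 2.0.8b was their aligner, on mm10, and Cuffdiff 2.1.1 gave the FPKM over UCSC genes that they deposited, a table for each library. Whether strand was used in counting is not given in the sources used here. Headings over the values named another passage or none, so the passage was taken from each library's record. Each file held 23141 rows under 22800 symbols, and for 236 repeated symbols the row with the highest mean was kept. FPKM give no absolute depth. From the lowest values, 1 fragment was worth -0.37 to 0.00 on the log2 scale relative to passage 8, and summed FPKM were 597161 to 770438 in MOEHIGH and 624733 to 683841 in MOELOW. Replicates are passages of one line.

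Genes averaging 0.5 FPKM or more over the libraries were tested with limma 3.58.1 in R 4.3.3 on log2(FPKM + 1) with a variance trend, with Benjamini-Hochberg adjustment over all of them. The fit was tested on simulated data. Other steps used Python 3.11.15, numpy 2.4.6 and pandas 2.3.3. Chromosomes came from RefSeq and exon overlaps from GENCODE M21, both of the mm10 build. Of neighbouring lists, up to 3 called genes per direction with a mean of at least 5 FPKM were eligible to be named by size of change. The members and lists were chosen with earlier results of these data known. The comparison of passage 90 with other MOEHIGH libraries and the 4 promoters were chosen after the values were seen. Alternatives were other pseudocounts, filters, scalings, thresholds, a 2-fold test, robust moderation, a replicate block, summed rows, removal of chromosome medians and leaving out each library. Protein sequences were not used here. Values of some single genes of the neighbouring lists are not reported here.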

Additional observations from a re-analysis of the deposited data

How the results depend on the processing

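Pseudocounts of 0.1 or 0.01 and summing the rows of a symbol left the calls of all 32 members as they were. With libraries scaled to equal totals 7 members were higher and 2 sterol enzymes, beside 2256 over all genes. At an adjusted p of 0.01, 6 members and 2 sterol enzymes were higher, beside 1933 over all genes. In the test against a 2-fold change 1 member was higher, a sterol enzyme, and 0 were lower (1, Scd1, at an unadjusted p under 0.05 in limma), with 303 genes higher and 907 lower over all genes. With chromosome medians removed 10 sterol enzymes were higher, beside 28.8% of all tested genes. At a mean of at least 5 FPKM 2350 genes were lower over all genes, where fewer were tested. Without each library in turn, 6 to 22 members and 2 to 13 sterol enzymes were higher, 4 to 5 members were lower, and over all genes 2212 to 3318 were higher and 3030 to 4378 lower. The sign turned for Hmgcs1 (-0.13), Nsdhl (-0.02), Hsd17b7 (-0.24), Sc5d (-0.16), Dhcr7 (-0.12) and Insig1 (-0.07) without passage 113, for Insig1 (-0.10) and Acss2 (-0.06) without passage 103, for Acss2 without passage 8 (-0.02) and with chromosome medians removed (-0.12), and for Hsd17b7 without passage 9 (-0.03) and at equal totals (-0.03). Without passage 90 the values of these genes were 0.94 for Hmgcs1, 0.52 for Nsdhl, 0.29 for Hsd17b7, 0.39 for Sc5d, 0.35 for Dhcr7, 0.84 for Insig1 and 0.18 for Acss2. The cause was not tested. Members with both later libraries above passage 90 numbered 29 or 30 under either scaling, and all tested genes 6142 at equal totals, against 3652 as reported. These scalings of the passage 90 count were chosen after the data were seen. Replicate numbers in the titles were not used as pairs in the main fit. Deviations of same-numbered libraries correlated at -0.02, -0.15 and 0.12 across genes, and not every library correlated best with its own number. With 3 libraries in each group these values cannot decide whether the libraries were paired. With the replicate block 15 members were higher and 4 lower, beside 2967 and 3839 over all genes.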
